A study of Mus musculus with 3 samples.

Results

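The genes described here are 10 members of the JAK-STAT pathway, listed by name from the 18029 genes of the count table: the kinases Jak1, Jak2 and Jak3, the transcription factors Stat3, Stat4, Stat5a and Stat5b, and the feedback inhibitors Socs1, Socs3 and Cish. All 10 passed the filter on low counts in both CD4+ and CD8+ T cells. They were followed in mice given saline or 1 of 2 doses of cyclosporine A (CSA), a calcineurin inhibitor that blocks NFAT activation downstream of the T cell receptor. Irradiated B6D2F1 mice were transplanted with B6 bone marrow and B6 T cells, to which a small number of TEa CD4+ T cells (TCR transgenic) had been added, so every group was an allogeneic transplant with graft-versus-host disease and none was an untreated mouse. From day 0 through day 6 the recipients had daily injections of saline or of CSA, the latter at a dose of either 5 or 50 mg/kg. On day 7 the spleens of 6 mice per group were taken and joined by 2, giving 3 hashtagged pools per group, and the sorted CD4+ and CD8+ donor T cells of a group shared 1 droplet capture, so capture and treatment cannot be told apart. Ages were not given in the sources used here.

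A total of 21204 cells were deposited, of which 280 were marked TEa and left out, so that 20924 cells were summed. A pool held 875 to 1479 CD4+ cells with 3994968 to 7592334 unique molecular identifiers (UMIs), and 692 to 1615 CD8+ cells with 4392100 to 11454636 UMIs. Median UMIs per cell rose with dose, from 3097 through 4396 to 5979.5 in CD4+ cells and from 4108 through 6121.5 to 7183 in CD8+ cells. Of 20986 distinct cell barcodes, 218 occurred in more than 1 capture. Levels are given as UMIs scaled to a common library total (CPM) with TMM normalization, and changes as log2 values ± SE from edgeR, where 1 is a doubling. Intervals and errors describe the spread between pools. Cd3e had at least 3944 UMIs in every pool. Cd8a had 0 UMIs in CD4+ cells and Cd4 had 0 UMIs in CD8+ cells. Such zeros are no independent check of the lineage labels if cells were selected on these same counts, which was not tested. Another coreceptor gene, Cd8b1, had 4074 UMIs in CD4+ cells (136 to 813 per pool), beside 132928 in CD8+ cells. Ms4a1, which marks B cells, had no more than 3 UMIs in any pool.

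Cytokines that bind receptors of the gamma chain family, the IL-6 family and the IL-12 family bring Janus kinases together on the receptor tails, where they phosphorylate STAT proteins that then enter the nucleus. In T cells, IL-2, IL-7 and IL-15 act mainly through JAK1, JAK3 and STAT5, IL-6 and IL-21 through STAT3, and IL-12 through JAK2, TYK2 and STAT4. SOCS1, SOCS3 and CIS, the product of Cish, are transcribed in response to activated STATs and damp the same receptors, so their mRNA is widely used as a readout of recent cytokine signalling.

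Because the 3 feedback inhibitors shared a dose pattern, their start sites in the RefSeq promoter table (GRCm38.p6) were searched for the palindromic STAT motif TTCNNNGAA, whose reverse strand reads the same. Each window ran from 250 bases before to 50 bases after a gene start. All 10 members matched the table, with 13 windows between them, and 2 of them held the motif. Among all 32851 windows, 8.3% held it and 0.457% held at least 2 copies. The stretches below show the copies of Cish and Socs3 in capitals and the first 250 bases of the Socs1 window, in which these letters did not occur. They lie at chr9:107296654-107296683 on the plus strand for Cish, chr11:117969502-117969531 on the minus strand for Socs3 and chr16:10785537-10785786 on the minus strand for Socs1.
Cish: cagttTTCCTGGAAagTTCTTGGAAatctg
Socs3: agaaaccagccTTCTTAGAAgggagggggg
Socs1: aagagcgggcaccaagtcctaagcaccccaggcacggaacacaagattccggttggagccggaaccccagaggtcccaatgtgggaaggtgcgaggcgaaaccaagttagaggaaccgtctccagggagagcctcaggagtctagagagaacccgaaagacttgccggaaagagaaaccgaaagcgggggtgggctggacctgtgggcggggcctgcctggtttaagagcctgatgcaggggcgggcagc
Both Cish copies began within the first bases after the RefSeq start, at positions 1 and 12, and the Socs3 copy began at position -154. A match is a description of the sequence and no measurement of binding.

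In GRCm38 with the GENCODE vM21 annotation, the kinase genes lie at chr4:101152367-101265282 (Jak1), chr19:29251828-29313080 (Jak2) and chr8:71676296-71690575 (Jak3). Stat4 lies at chr1:51987148-52107189. The other STAT genes form a run on chromosome 11, with Stat5b at chr11:100780731-100850724, Stat5a at chr11:100859351-100885169 and Stat3 at chr11:100885098-100939540. Socs1 lies at chr16:10782240-10785536, Socs3 at chr11:117966079-117970047 and Cish at chr9:107296026-107302784. Exons of Stat3 and Stat5a overlap on opposite strands, as do those of Jak1 and Raver2 and those of Cish with Gm17040 and Gm17041, while Jak3 overlaps Insl3 and Stat4 overlaps Gm28177 on the same strand. The strand setting of the counting was not given in the sources used here, so reads from overlapping exons may be shared.

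The feedback inhibitors rose at the low dose against saline and were lower at the high than at the low dose in both lineages. Socs1 encodes a SOCS box protein that inhibits JAK kinases directly. In CD4+ cells, Socs1 stood at 112, 103 and 97.7 CPM in the saline pools, 144, 144 and 151 CPM at 5 mg/kg, and 87.1, 86.4 and 93.3 CPM at 50 mg/kg. In CD8+ cells the same pools gave 46.3, 41.4 and 55.8 CPM after saline, 80.9, 87.6 and 80.4 CPM at 5 mg/kg, and 40.6, 43.3 and 36.9 CPM at 50 mg/kg. Every pool at 5 mg/kg was above every pool of the other groups, in both lineages. The rise at 5 mg/kg over saline was 0.49 ± 0.06 in CD4+ cells (adjusted p = 2.99e-07) and 0.79 ± 0.09 in CD8+ cells (adjusted p = 4.71e-07). From 5 to 50 mg/kg, Socs1 fell by 0.72 ± 0.06 (adjusted p = 2.56e-09) and by 1.05 ± 0.09 (adjusted p = 8.63e-08).

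Socs3, an inhibitor recruited to IL-6 family receptors, followed the same course. In CD4+ cells it was at 41.5, 44.3 and 36.9 CPM after saline, 70.7, 54.2 and 54.1 CPM at 5 mg/kg, and 21.5, 24.5 and 26.0 CPM at 50 mg/kg. In CD8+ cells it was at 22.8, 20.01 and 19.4 CPM after saline, 36.2, 32.8 and 32.6 CPM at 5 mg/kg, and 12.3, 13.01 and 13.4 CPM at 50 mg/kg. The 3 groups did not overlap in either lineage, and their order was 5 mg/kg, saline, 50 mg/kg. Socs3 rose by 0.53 ± 0.10 (CD4+, adjusted p = 0.000145) and 0.70 ± 0.09 (CD8+, adjusted p = 2.8e-06) at 5 mg/kg. With library size scaling the CD4+ rise was 0.17 and did not pass the test (adjusted p = 0.152). Between 5 and 50 mg/kg it fell by 1.29 ± 0.11 (CD4+, adjusted p = 5.19e-09) and by 1.38 ± 0.10 (CD8+, adjusted p = 6.4e-09).

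Cish encodes CIS, a STAT5-induced inhibitor of IL-2 receptor signalling. In CD4+ cells Cish measured 37.5, 41.7 and 54.3 CPM after saline, 68.2, 68.5 and 74.1 CPM at 5 mg/kg, and 43.6, 51.4 and 46.6 CPM at 50 mg/kg. In CD8+ cells it measured 16.8, 23.0 and 22.2 CPM after saline, 42.2, 42.7 and 44.4 CPM at 5 mg/kg, and 21.8, 23.2 and 14.3 CPM at 50 mg/kg. The pools at 5 mg/kg again lay above all others, while the saline and 50 mg/kg pools overlapped in both lineages. Cish was 1.57-fold higher at 5 mg/kg than with saline in CD4+ cells (log2 0.65 ± 0.10, adjusted p = 1.51e-05) and 2.07-fold higher in CD8+ cells (log2 1.05 ± 0.14, adjusted p = 3.42e-06). It fell by 0.58 ± 0.10 (adjusted p = 7.91e-05) and by 1.15 ± 0.14 (adjusted p = 5.01e-06) from 5 to 50 mg/kg. No change of Cish at 50 mg/kg against saline passed the test in either lineage (0.07 ± 0.10, adjusted p = 0.551 in CD4+ cells and -0.10 ± 0.15, adjusted p = 0.561 in CD8+ cells). Without saline replicate 3 the CD4+ change was 0.24 and passed (adjusted p = 0.0232). It also passed outside the cycling clusters (0.42), and among cells of 4000 to 8000 UMIs Cish was higher in both lineages, by 0.36 (adjusted p = 0.0379) and 0.53 (adjusted p = 0.00466). Library size scaling gave the opposite, with called falls of -0.37 in CD4+ (adjusted p = 0.00328) and -0.63 in CD8+ cells (adjusted p = 0.00107).

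**Figure D1:**
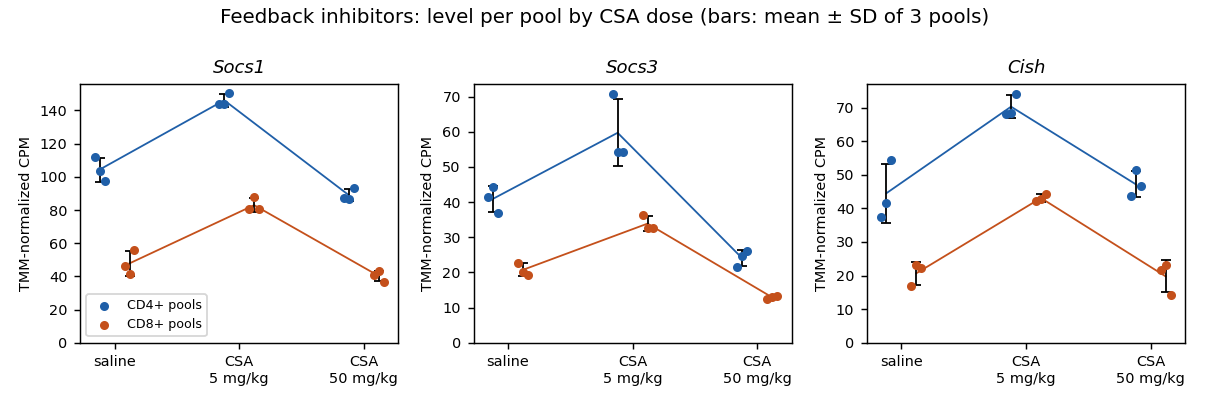
TMM-normalized CPM of Socs1, Socs3 and Cish (y axis) by treatment (x axis), with 1 point per pool, CD4+ cells in blue and CD8+ cells in orange, and black bars for the mean ± SD of 3 pools. All 3 genes peaked at 5 mg/kg in both lineages, and Socs3 in CD8+ cells ran from a mean of 20.7 with saline through 33.9 to 12.9 CPM.

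Compared with saline, the high dose lowered Socs1 by 0.22 ± 0.06 in CD4+ cells (adjusted p = 0.00185) and 0.26 ± 0.09 in CD8+ cells (adjusted p = 0.0191), and Socs3 by 0.76 ± 0.11 (adjusted p = 3.17e-06) and 0.67 ± 0.10 (adjusted p = 7.94e-06). These 4 falls depended on which cells were compared. Outside the cycling clusters, Socs1 changed by -0.06 in CD4+ and -0.12 in CD8+ cells, and neither passed the test. The CD8+ fall of Socs1 did not pass it without saline replicate 3 (-0.13) or without the replicate 3 pool of 50 mg/kg (-0.19). Among cells of 4000 to 8000 UMIs, Socs1 was instead 0.21 higher in CD4+ and 0.24 higher in CD8+ cells, and Socs3 was 0.16 higher in CD4+ and 0.19 lower in CD8+ cells. Of these, the CD4+ Socs1 rise passed the test (adjusted p = 0.0436). Low-dose rises of all 3 genes and the fall of Socs1 and Socs3 from 5 to 50 mg/kg passed the test among these cells too, with Socs3 rising by 1.42 in CD4+ cells at 5 mg/kg. Cish in CD4+ cells fell from 5 to 50 mg/kg by 0.29 in the same cells and by 0.20 outside the cycling clusters, and neither passed the test (adjusted p = 0.132 and 0.148).

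Markers of other cells moved with dose as well, and their part in these results was not tested. The T cell list rose too. It summed to 3437 to 3575 CPM in the saline and 4627 to 4639 CPM in the 50 mg/kg pools of CD4+ cells. In CD8+ cells it summed to 3958 to 4001 and 8275 to 8665 CPM. NK cell genes fell in CD4+ cells, from 6.11 to 6.82 CPM with saline down to 0.834 to 2.84 CPM at 50 mg/kg. In CD8+ cells they summed to 6.53 to 9.90 and 7.15 to 16.2 CPM. The summed level of 9 myeloid genes was 260 to 296 CPM in the saline CD4+ pools, 372 to 465 CPM with the low and 349 to 445 CPM with the high dose, and 3 of 9 were higher at 5 mg/kg. At 50 mg/kg 3 of 9 were higher and 2 lower in CD4+ cells, among them Itgam (1.15 ± 0.28) and Lyz2 (-1.22 ± 0.33), and 5 were higher and 2 lower in CD8+ cells. In CD8+ cells the sums were 261 to 304, 408 to 466 and 394 to 480 CPM, and 6 of 9 were higher at 5 mg/kg. Genes that respond to cell dissociation, among them Jun, Junb and Fos, summed to 1244 to 1368, 1524 to 1686 and 1842 to 1931 CPM in CD4+ cells, and to 832 to 860, 1077 to 1136 and 1303 to 1461 CPM in CD8+ cells. These sums were higher at both doses than with saline, and the dissociation sum was highest at 50 mg/kg. Its genes were mixed: of 9 tested, 4 were higher and 2 lower at 5 mg/kg in each lineage. At 50 mg/kg 4 were higher and 3 lower in CD4+ cells, and 5 were higher and 3 lower in CD8+ cells. Of all genes, 26.1% were higher and 25.6% lower at 5 mg/kg in CD4+ cells, and 29.9% and 30.3% in CD8+ cells. At 50 mg/kg 34.7% were higher and 35.8% lower in CD4+ cells, and 37.1% and 36.9% in CD8+ cells. Erythroid genes summed to 2.67 to 12.4 CPM in the saline and 31.2 to 41.7 CPM in the 50 mg/kg pools of CD4+ cells, and to 3.33 to 14.4 and 28.8 to 56.0 CPM in CD8+ cells, with 4 of the 4 genes tested higher in each lineage. The B cell list summed to 164 to 177 CPM in the saline and 318 to 379 CPM in the 50 mg/kg pools of CD4+ cells. In CD8+ cells, that list was at 152 to 170 CPM in saline pools and 667 to 861 CPM at 50 mg/kg, with Jchain, an immunoglobulin joining chain gene, at 2642, 2208 and 2085 UMIs in the 3 pools.

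Among the kinases, Jak2 fell stepwise with dose, while Jak1 and Jak3 changed little. JAK2 serves the receptors for IL-12, interferon gamma and GM-CSF. In CD4+ cells Jak2 was at 128, 132 and 124 CPM after saline, 86.7, 84.5 and 74.1 CPM at 5 mg/kg, and 39.3, 36.0 and 39.0 CPM at 50 mg/kg. In CD8+ cells it was at 77.6, 81.7 and 78.0 CPM after saline, 46.6, 42.5 and 44.9 CPM at 5 mg/kg, and 33.4, 33.9 and 36.4 CPM at 50 mg/kg. No 2 groups overlapped in either lineage. Against saline the CD4+ level fell by 0.66 ± 0.06 at 5 mg/kg (adjusted p = 1.98e-08) and by 1.75 ± 0.07 at 50 mg/kg (adjusted p = 2.46e-15), which left 0.30 of the saline level. The CD8+ level fell by 0.83 ± 0.06 (adjusted p = 1.87e-09) and by 1.19 ± 0.06 (adjusted p = 3.64e-12). Its step from 5 to 50 mg/kg was -0.36 ± 0.07 (adjusted p = 0.000361) and did not pass the test outside the cycling clusters (-0.31) or among cells of 4000 to 8000 UMIs (-0.17). The fall of Jak2 at 50 mg/kg was the largest of the 10 members in CD4+ cells, and Stat5b fell most in CD8+ cells.

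Jak1, the kinase shared by gamma chain, interferon and IL-6 family receptors, was at 388, 379 and 377 CPM in the saline CD4+ pools, 336, 315 and 333 CPM at 5 mg/kg, and 339, 331 and 331 CPM at 50 mg/kg. Both doses lay below saline, by 0.22 ± 0.04 (adjusted p = 9.75e-05) and 0.19 ± 0.04 (adjusted p = 0.000149). In CD8+ cells Jak1 was at 410, 438 and 395 CPM after saline, 373, 345 and 353 CPM at 5 mg/kg, and 422, 441 and 411 CPM at 50 mg/kg, so the low dose stood below both other groups. It fell by 0.22 ± 0.05 at 5 mg/kg (adjusted p = 0.000554) and rose by 0.25 ± 0.05 from 5 to 50 mg/kg (adjusted p = 0.000298). Among cells of 4000 to 8000 UMIs, Jak1 was 0.17 higher in CD4+ cells at 50 mg/kg than with saline (adjusted p = 0.0158), the opposite direction, and 0.33 higher in CD8+ cells (adjusted p = 2.75e-06), where the change over all cells was 0.04 ± 0.04 (adjusted p = 0.488).

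Jak3 encodes the kinase that binds the gamma chain itself. It was at 95.0, 99.4 and 102 CPM in CD4+ cells and 96.9, 92.8 and 95.3 CPM in CD8+ cells at 5 mg/kg, and these changes from saline did not pass the test (0.11 ± 0.07, adjusted p = 0.18 in CD4+ and 0.14 ± 0.06, adjusted p = 0.0539 in CD8+ cells). With the high dose it was at 79.6, 74.6 and 65.5 CPM in CD4+ cells, below the saline pools at 90.9, 95.8 and 88.7 CPM. The CD8+ pools at 50 mg/kg held 75.7, 69.2 and 64.5 CPM, below saline at 87.2, 89.4 and 81.8 CPM. The falls were 0.33 ± 0.07 (adjusted p = 0.000161) and 0.31 ± 0.06 (adjusted p = 0.000166). Its sign at 5 mg/kg depended on the setting: the change was -0.25 and -0.28 with library size scaling, and 0.32 and 0.34 among cells of 4000 to 8000 UMIs.

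Of the STAT genes, Stat5b fell most. STAT5B is the major mediator of IL-2 family signals in T cells. It was at 82.9, 72.8 and 76.5 CPM in CD4+ cells with saline, 41.1, 45.6 and 45.7 CPM at 5 mg/kg, and 27.9, 23.5 and 28.1 CPM at 50 mg/kg. In CD8+ cells it was at 57.9, 55.4 and 50.5 CPM, then 39.9, 34.4 and 35.6 CPM, then 20.2, 21.4 and 22.1 CPM. The groups were separate at each step in both lineages. In CD4+ cells it fell by 0.80 ± 0.08 at 5 mg/kg against saline (adjusted p = 2.92e-08) and changed by -1.54 ± 0.08 at 50 mg/kg (adjusted p = 4.53e-13). The CD8+ falls were 0.59 ± 0.08 (adjusted p = 4.13e-06) and 1.36 ± 0.08 (adjusted p = 3.72e-11).

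Stat5a, the neighbouring paralog on chromosome 11, fell less. In CD4+ cells it was at 41.7, 39.5 and 35.7 CPM after saline, 32.8, 34.8 and 33.5 CPM at 5 mg/kg, and 22.4, 18.02 and 21.5 CPM at 50 mg/kg. In CD8+ cells it was at 28.8, 33.5 and 32.3 CPM, then 26.9, 25.3 and 25.4 CPM, then 19.3, 21.0 and 23.3 CPM. The pools at 50 mg/kg were below all saline pools, with falls of 0.91 ± 0.10 in CD4+ (adjusted p = 2.93e-08) and 0.57 ± 0.09 in CD8+ cells (adjusted p = 1.99e-05). The CD8+ fall from 5 to 50 mg/kg was 0.27 ± 0.10 (adjusted p = 0.0364) and was lost by DESeq2 and on leaving out any 5 mg/kg pool or the replicate 1 or 2 pool of 50 mg/kg. At 5 mg/kg the CD8+ fall of 0.29 ± 0.09 passed the test (adjusted p = 0.0116) and the CD4+ change of -0.20 ± 0.09 did not (adjusted p = 0.074). Among cells of 4000 to 8000 UMIs the calls were the other way round, at -0.19 in CD8+ (adjusted p = 0.261) and -0.38 in CD4+ cells (adjusted p = 0.0216). The CD4+ fall was also called with library size scaling (-0.56), without cells of 2 strong hashtags (-0.24) and without saline replicate 3 (-0.26).

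The share of Stat5a was higher in treated than in saline pools, and in CD4+ cells the pools of the 2 doses overlapped. Stat5a made up 33.4%, 35.1% and 31.8% of Stat5a plus Stat5b UMIs in the saline CD4+ pools, 44.4%, 43.3% and 42.4% at 5 mg/kg, and 44.5%, 43.4% and 43.4% at 50 mg/kg. In CD8+ pools the share was 33.2%, 37.7% and 39.0% with saline, 40.2%, 42.4% and 41.6% at 5 mg/kg, and 48.8%, 49.5% and 51.4% at 50 mg/kg. Each treated pool was above each saline pool of its lineage. The exact two-sided permutation test of 3 pools against 3 gave p = 0.1 for each of these 4 comparisons, the smallest p that this design allows. In cells of 4000 to 8000 UMIs the CD4+ difference at 50 mg/kg was 4.67 percentage points in place of 10.3. The genes lie 8626 bases apart on opposite strands in GENCODE vM21, and 3.98% of the distinct 90-base windows of Stat5a transcripts also occur in Stat5b, so a small part of their reads could be assigned to either.

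Stat3, the factor of IL-6 and IL-21 signalling, also fell stepwise. It was at 153, 144 and 151 CPM in CD4+ cells with saline, 138, 135 and 130 CPM at 5 mg/kg, and 111, 101 and 99.1 CPM at 50 mg/kg. In CD8+ cells it was at 155, 144 and 152 CPM, then 115, 124 and 122 CPM, then 91.0, 92.7 and 95.3 CPM. The groups did not overlap. The fall at 50 mg/kg was 0.52 ± 0.05 (CD4+, adjusted p = 1.68e-08) and 0.69 ± 0.05 (CD8+, adjusted p = 4.07e-10). At 5 mg/kg it fell by 0.15 ± 0.05 (CD4+, adjusted p = 0.0217) and by 0.32 ± 0.05 (CD8+, adjusted p = 2.24e-05). The CD4+ call at 5 mg/kg was lost by DESeq2 and on leaving out saline replicate 1 or 3 or the 5 mg/kg replicate 2 or 3 pool, with changes from -0.15 to -0.12. The CD4+ fall at 50 mg/kg was 0.14 and did not pass the test among cells of 4000 to 8000 UMIs (adjusted p = 0.129).

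Stat4, which carries IL-12 signals in Th1 cells, changed least of the STAT genes. Its CD4+ pools were at 194, 189 and 194 CPM after saline, 183, 167 and 175 CPM at 5 mg/kg, and 183, 171 and 183 CPM at 50 mg/kg. Its CD8+ pools were at 182, 174 and 174 CPM, then 167, 148 and 147 CPM, then 168, 168 and 170 CPM. It fell at 5 mg/kg by 0.14 ± 0.05 (CD4+, adjusted p = 0.0212) and by 0.21 ± 0.05 (CD8+, adjusted p = 0.00153). Its changes of -0.10 ± 0.05 (adjusted p = 0.0505) and -0.07 ± 0.05 (adjusted p = 0.227) at 50 mg/kg did not pass the test. The same settings and pools that ended the CD4+ call of Stat3 at 5 mg/kg also ended that of Stat4, at -0.14 to -0.11. The CD8+ change at 5 mg/kg was near 0 among cells of 4000 to 8000 UMIs (adjusted p = 0.973). With library size scaling Stat4 fell at 50 mg/kg in both lineages, by 0.54 (CD4+, adjusted p = 1.37e-09) and by 0.60 (CD8+, adjusted p = 2.03e-09). Among cells of 4000 to 8000 UMIs Stat4 was instead 0.18 (CD4+) and 0.22 (CD8+) above saline at 50 mg/kg. Its CD8+ rise from 5 to 50 mg/kg (0.14 ± 0.05, adjusted p = 0.0305) lost the call by DESeq2, with library size scaling (0.037), outside the cycling clusters and without the 5 mg/kg replicate 2 (0.12) or 3 (0.11) or the 50 mg/kg replicate 2 pool (0.15), among others.

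**Figure D2:**
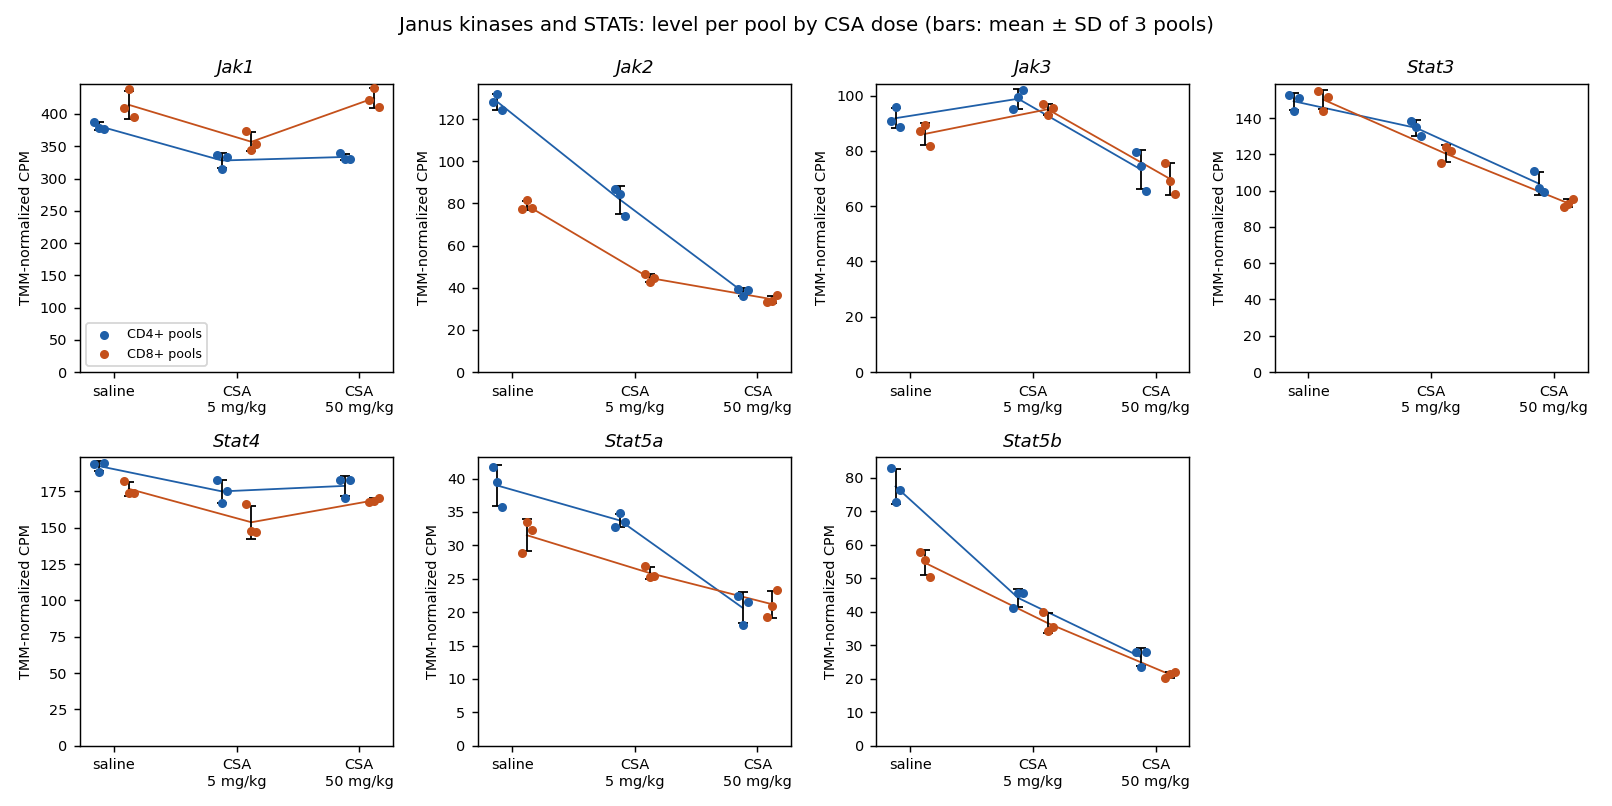
TMM-normalized CPM of 3 Janus kinase and 4 STAT genes (y axis, from 0) by treatment (x axis), with 1 point per pool, CD4+ cells in blue and CD8+ cells in orange, and black bars for the mean ± SD of 3 pools. Jak2, Stat3, Stat5a and Stat5b stepped down with dose, Jak2 in CD4+ cells from a mean of 128 through 81.8 to 38.1 CPM, while Stat4 moved little.

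CSA changed a large share of all genes, and the counts of members are to be read against it. In CD4+ cells at 5 mg/kg, 3 members were higher and 5 lower, where 26.1% of all genes tested were higher and 25.6% lower. At 50 mg/kg none was higher and 8 were lower (34.7% and 35.8% of all genes), and against 5 mg/kg none was higher and 8 were lower (19.9% and 21.3%), all by edgeR. An unadjusted p under 0.05 added no higher member in either comparison. In CD8+ cells 3 were higher and 6 lower at 5 mg/kg (29.9% and 30.3% of all genes), and none was higher and 7 were lower at 50 mg/kg (37.1% and 36.9%). From 5 to 50 mg/kg in CD8+ cells, 2 were higher and 8 lower (20% and 21.0%). The median change of the members at 50 mg/kg against saline was -0.43 in CD4+ and -0.44 in CD8+ cells, beside -0.01 and 0.00 over all genes tested. Library size scaling moved the median of all genes to -0.45 in CD4+ and -0.53 in CD8+ cells at 50 mg/kg and to -0.37 and -0.43 at 5 mg/kg. Under it, 1599 genes were higher and 6239 lower in CD4+ cells at 50 mg/kg, where TMM gave 3669 and 3785, and 1690 were higher and 6794 lower in CD8+ cells, where TMM gave 4021 and 4003. It gave, for 5 mg/kg, 926 higher and 5718 lower in CD4+ cells (2758 and 2709 with TMM) and 1180 higher and 6270 lower in CD8+ cells (3241 and 3282 with TMM). Comparisons of the doses with saline share the saline pools, and those of 50 mg/kg share the 50 mg/kg pools.

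The lineages differed already with saline, where 40.1% of all genes were called between them and 7 of 10 members were. Relative to CD4+ cells of the same pools, CD8+ cells held less Socs1 (-1.04 ± 0.08, adjusted p = 5.19e-11), Cish (-1.01 ± 0.10, adjusted p = 7.49e-09) and Socs3 (-0.90 ± 0.08, adjusted p = 1.44e-09). They also held less Jak2 (-0.61 ± 0.05, adjusted p = 3.09e-10), Stat5b (-0.42 ± 0.06, adjusted p = 6.86e-06) and Stat5a (-0.20 ± 0.08, adjusted p = 0.0466), and more Jak1 (0.21 ± 0.04, adjusted p = 3.88e-05). The Stat5a difference was not past the threshold by DESeq2 or without saline replicate 1 (-0.11) or 2 (-0.24), and among cells of 4000 to 8000 UMIs the differences of Socs3 (-0.25, adjusted p = 0.267) and Stat5b (-0.22, adjusted p = 0.0959) were not past it either.

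The response to the high dose differed between lineages for 2 of 10 members by edgeR, a count near the share of all genes called. Of these members, Jak2 kept the call in the alternatives named here. In a fit of both lineages that held pool as a block, the change at 50 mg/kg was higher in CD8+ than in CD4+ cells by 0.53 ± 0.09 for Jak2 (adjusted p = 9.12e-05) and by 0.20 ± 0.05 for Jak1 (adjusted p = 0.00645), where 19.3% of all genes were called. The Jak1 difference was 0.11 outside the cycling clusters (adjusted p = 0.364), and that of Jak2 was 0.60 (adjusted p = 0.00139). With library size scaling the Jak1 difference was 0.14 (adjusted p = 0.0505). The Stat3 difference of -0.19 ± 0.07 did not pass (adjusted p = 0.0507), but did so with library size scaling (-0.25), among cells of 4000 to 8000 UMIs (-0.39), without the 50 mg/kg replicate 3 pool (-0.25) and without the 5 mg/kg replicate 1 pool (-0.19). No member at 5 mg/kg differed in its change by edgeR, with 3.57% of all genes called, and 4 of 10 reached an unadjusted p under 0.05. DESeq2 also called 0 members there, but gave no adjusted p for 7 of them. Without saline replicate 3, Socs1 was called at 5 mg/kg, with a CD8+ rise 0.44 larger than the CD4+ rise. The interaction of Cish at 5 mg/kg was 0.36 ± 0.14 (adjusted p = 0.165), so the larger CD8+ rise was not shown to differ from the CD4+ rise.

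The clusters of the authors let the changes be followed among like cells, and 5 CD4+ and 4 CD8+ clusters were tested, namely large effector, precursor-like and cycling clusters with at least 37 cells in each pool. CD4+ C4, C7, C8, C9 and C10 and CD8+ C5, C6 and C7 also had 10 cells or more in every pool and were not tested. CD4+ C7 had at least 40 cells in each pool, so size alone did not set the choice. The CD4+ clusters tested were the Cd226hi effector (C0), Cd226lo effector (C1), Tcf7hi precursor-like (C2) and 2 cycling effector clusters (C3 and C5). Those in CD8+ cells were the Cd226hi effector (C0), Cd226lo effector (C1) and 2 cycling clusters (C2 and C3). Jak2 and Stat5b fell at 50 mg/kg against saline in all 9 clusters tested, by edgeR. The Jak2 change ran from -0.86 in CD4+ C3 to -1.73 in CD4+ C5, and the Stat5b change from -0.72 in CD8+ C1 to -1.64 in CD4+ C5. Stat3 fell in 6 of 9 clusters, Stat5a in 5, Jak3 in 4, Jak1 in 3 and Stat4 in 1. None of these 5 genes was called higher in any cluster at 50 mg/kg against saline. The Stat4 changes ran from -0.24 to 0.30. In CD4+ C1 its pools were at 200 to 236 CPM at 50 mg/kg and 162 to 187 CPM with saline. In CD8+ C1 they were at 208 to 212 and 174 to 193 CPM.

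The low-dose rise was clearest in the CD8+ clusters. Cish rose at 5 mg/kg in all 4 of them, by 1.31 ± 0.25 in C0, 1.47 ± 0.26 in C1, 1.17 ± 0.20 in C2 and 0.90 ± 0.21 in C3. In CD8+ C1 its pools ran from 58.0 to 84.1 CPM at 5 mg/kg and from 16.1 to 32.6 CPM with saline. In CD4+ cells Cish rose in C0 by 0.53 ± 0.17 and in no other cluster tested. Socs1 rose in CD4+ C0 (0.50 ± 0.15) and in CD8+ C0 (1.12 ± 0.22), C2 (0.67 ± 0.14) and C3 (0.72 ± 0.16). Socs3 passed the test at 5 mg/kg in none of the 8 clusters in which it could be tested by edgeR, with changes from -0.47 to 1.30 and an unadjusted p under 0.05 in 3.

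From 5 to 50 mg/kg Socs1 fell in 9 of 9 clusters, Cish in 8 of 9 and Socs3 in 6 of 8. Cish dropped most in the cycling CD8+ clusters, from 31.3 to 39.6 CPM across the pools of C2 at 5 mg/kg to between 5.96 and 11.97 CPM at 50 mg/kg. That was a fall of 2.07 ± 0.20 in C2 and of 2.20 ± 0.23 in C3. The exception was CD4+ C2, the Tcf7hi precursor-like cluster, where Cish was at 17.9 to 26.8 CPM with the low and 27.2 to 45.8 CPM with the high dose (0.60 ± 0.28, not past the threshold). In the same CD4+ C2 cells Socs3 fell from 100 to 144 CPM down to 32.2 to 40.2 CPM (-1.70 ± 0.20), and Socs1 from 188 to 202 CPM down to 76.7 to 130 CPM (-0.94 ± 0.14). Against saline, Cish fell at 50 mg/kg in 4 clusters (CD4+ C0 and C3, CD8+ C2 and C3), although no change of Cish passed the test over either lineage as a whole.

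**Figure D3:**
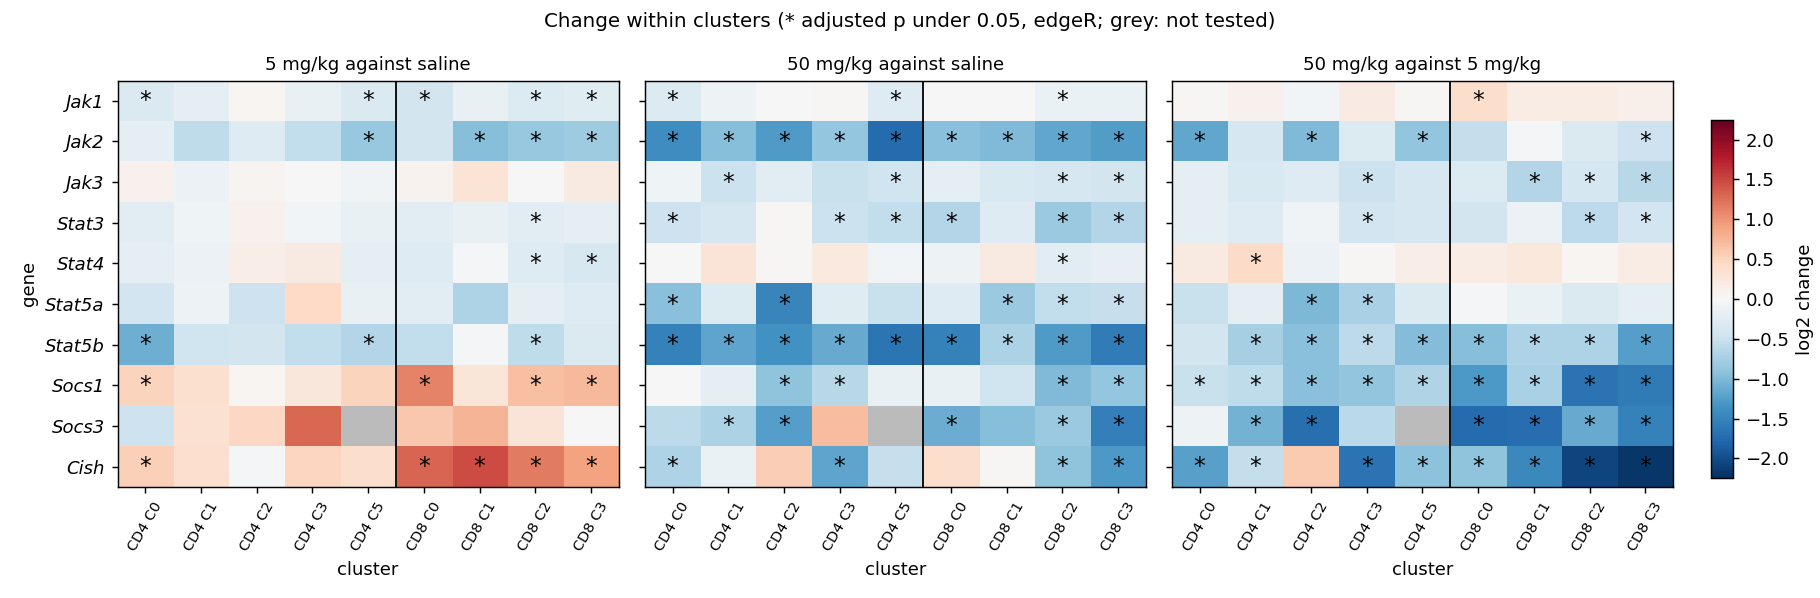
Log2 change of each member (rows) within 9 clusters (columns) for the 3 comparisons of treatment groups, with red for higher, blue for lower, grey for not tested and an asterisk where the adjusted p of edgeR was under 0.05. Jak2 and Stat5b are blue with an asterisk in all 9 clusters at 50 mg/kg against saline, and Socs1 in all 9 at 50 against 5 mg/kg.

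Each cluster had its own share of genes called. At 5 mg/kg against saline, 4 members in C0, none in C1, C2 or C3 and 3 in C5 were called in CD4+ cells, where 16.2%, 4.09%, 5.32%, 6.01% and 30.3% of all genes were. At 50 mg/kg against saline the CD4+ counts were 6, 4, 5, 5 and 5 (54.8%, 20.3%, 22.5%, 17.7% and 53.9% of all genes), and at 50 against 5 mg/kg they were 3, 5, 5, 6 and 4 (27.4%, 16.3%, 16.3%, 11.3% and 8.29%). In CD8+ C0 to C3, 3, 2, 7 and 5 members were called at 5 mg/kg (16.5%, 5.48%, 37.5% and 36.1% of all genes). At 50 mg/kg against saline they numbered 4, 3, 10 and 8 (58.4%, 26.9%, 54.8% and 58.9%), and at 50 against 5 mg/kg 5, 5, 6 and 7 (17.9%, 15.6%, 21.4% and 21.4%). In CD4+ C1, C2 and C3, where edgeR called none at 5 mg/kg, 3 members each had an unadjusted p under 0.05. All 10 members were lower in CD8+ C2 at 50 mg/kg than with saline.

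Levels by cluster are given without a test, since these same counts defined the clusters, and as CPM without TMM scaling over pools with at least 10 cells. The naive clusters held the most Socs3, at 240 ± 51.4 CPM (SD, n = 9 pools) in CD4+ C9 and 141 ± 34.6 CPM (n = 9) in CD8+ C7, and in each lineage the gap to the next cluster exceeded the larger SD. Socs1 was also highest there, at 449 ± 157 CPM in CD4+ C9, followed by the Isg15hi cluster C10 at 304 ± 153 CPM, which did not differ beyond their spread. In CD8+ cells Socs1 stood at 192 ± 27.4 CPM in C7 and 149 ± 39.4 CPM in the Tcf7hi cluster C5. Cish ranked otherwise, at 151 ± 101 CPM (n = 5) in the Treg cluster C11 and 134 ± 121 CPM (n = 3) in the Th17 cluster C12 of CD4+ cells, with spreads that overlapped most other clusters, and at 60.9 ± 30.4 CPM in CD8+ C0. In CD8+ C8 the Cish level was 52.7 ± 28.4 CPM, within the SD of C0. Its lowest CD4+ level was 19.7 ± 19.1 CPM in the Tfh cluster C4, with C2 within the larger SD at 26.2 ± 8.30 CPM.

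The Tfh cluster C4 held the highest CD4+ levels of Jak1 (538 ± 103 CPM), Jak2 (206 ± 120 CPM), Stat3 (190 ± 64.1 CPM), Stat4 (271 ± 109 CPM) and Stat5b (82.1 ± 57.1 CPM), each over 9 pools. In each case the next cluster lay within the larger SD. In that cluster Jak2 averaged 258 ± 29.7 CPM in the saline pools, 294 ± 97.9 CPM with the low and 65.9 ± 46.1 CPM with the high dose, the last from 7 UMIs. In CD8+ cells the Cd226hi effector cluster C0 was highest in Jak1 (619 ± 161 CPM) and Stat4 (230 ± 56.2 CPM). Cluster C5 lay within the larger SD in both, at 461 ± 112 and 199 ± 55.3 CPM. The cycling CD8+ cluster C4 had 6 to 7 cells in each 50 mg/kg pool, so its means rest on 6 saline and 5 mg/kg pools and are not ranked against clusters that include the high dose. Stat5a in CD4+ cells was highest in the cytotoxic cluster C7 at 67.5 ± 36.3 CPM, with C4 within the larger SD at 61.9 ± 25.9 CPM. The naive CD4+ cluster C9 had the lowest Stat4 (85.9 ± 42.6 CPM), with C12 within the larger SD at 117 ± 42.2 CPM. Within C9, Cish averaged 47.4 ± 19.9 CPM with saline, 79.7 ± 29.1 CPM with the low and 183 ± 65.3 CPM with the high dose (13, 27 and 64 UMIs), an order unlike that of the lineage as a whole.

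**Figure D4:**
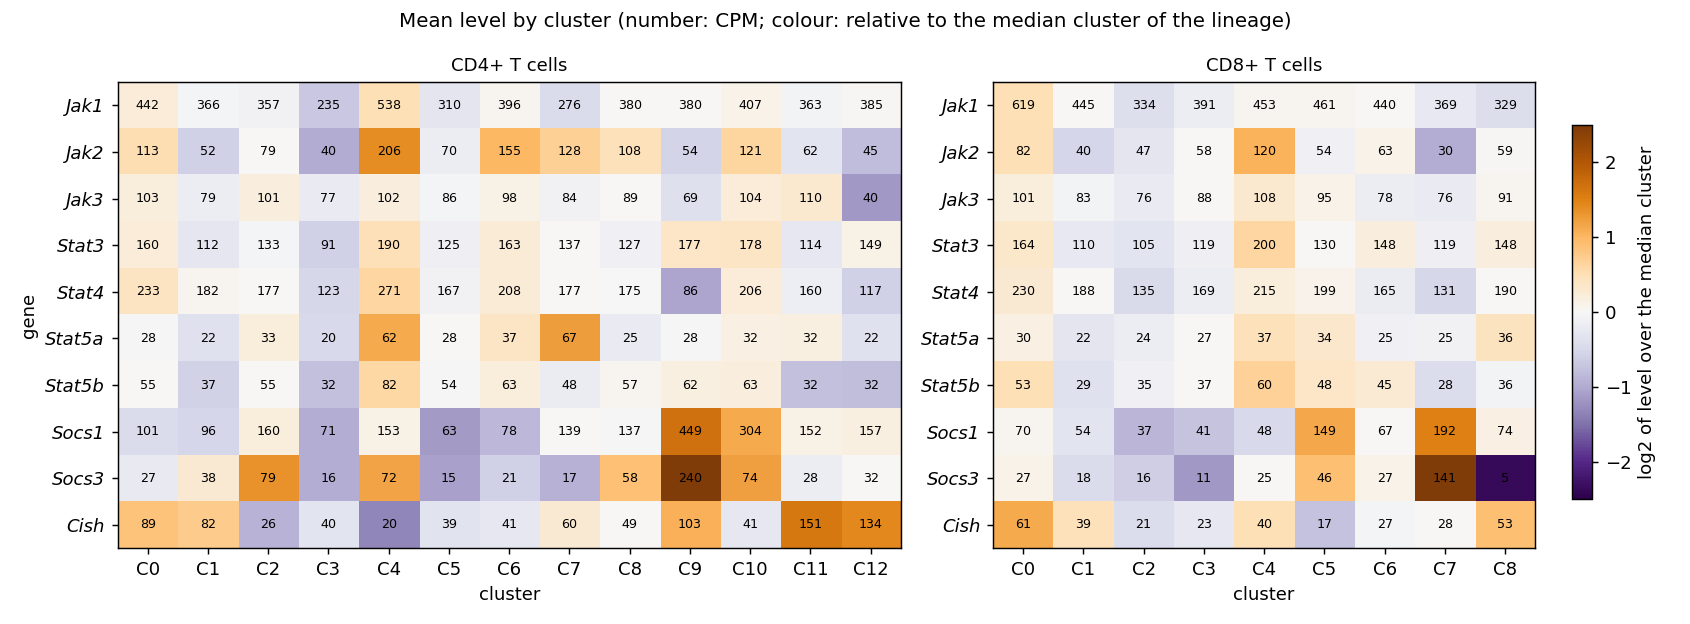
Mean CPM of each member (rows, numbers in the cells) by cluster (columns) in CD4+ cells (left) and CD8+ cells (right), coloured by the log2 ratio to the median cluster of the lineage. The naive clusters, C9 in CD4+ and C7 in CD8+ cells, stand out in Socs3, while Jak2 in the Tfh cluster C4 of CD4+ cells (206 ± 120 CPM) lies within its SD of the next cluster. The CD8+ C4 column holds no 50 mg/kg pool.

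Across 66 sums of cluster and treatment from both lineages, the genes whose level most resembled that of each member were named from 6107 genes with a mean of at least 20 CPM. These sums share mice, captures and depth, so the correlations are descriptive. Socs3 was closest to Rflnb (Pearson r = 0.84), Jun (0.78) and Chd3 (0.76), and Socs1 to Tgtp2 (0.83), Junb (0.80) and Slfn5 (0.76). Cish was closest to Tnfrsf18 (0.77), Sdf4 (0.62) and Ier5 (0.62), and Jak2 to Usp9x (0.88), Setd5 (0.88) and Ankrd17 (0.87). Jak3 and Stat5b shared Lbh as their closest gene (0.80 and 0.86). Jak1 was most like Ube2h (0.84), Stat3 most like Ppp4r3b (0.87), Stat4 most like Ttc39b (0.80) and Stat5a most like Prkca (0.83).

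Other genes of the pathway were taken by list. Of the remaining kinase and STAT genes, 4 of 4 were lower at 50 mg/kg in CD4+ cells and 3 of 4 in CD8+ cells. None was called higher. Among all genes, 34.7% were higher and 35.8% lower in CD4+ cells, and 37.1% and 36.9% in CD8+ cells. The counts at 50 mg/kg of this and the following lists are to be read against these shares. Stat2, an interferon factor, fell by 0.77 ± 0.11 (CD4+, adjusted p = 3.53e-06) and by 0.70 ± 0.09 (CD8+, adjusted p = 1.46e-06), and the kinase gene Tyk2 by 0.51 ± 0.08 and 0.40 ± 0.10. Among 5 other SOCS genes, Socs2 rose at 50 mg/kg, by 2.08 ± 0.13 in CD8+ (adjusted p = 9.11e-11) and 0.69 ± 0.16 in CD4+ cells (adjusted p = 0.00067). Socs4 fell by 0.79 ± 0.09 and 0.94 ± 0.09, and Socs5 changed by -1.45 ± 0.23 and -2.36 ± 0.33. In CD4+ cells 1 of the 5 was higher and 3 were lower, and in CD8+ cells 1 was higher and 2 were lower. At 50 mg/kg Socs2, a STAT5-induced gene, was therefore above saline, where over all cells Socs1 and Socs3 were below it and Cish did not pass the test. In CD4+ cells none of the 5 was called higher and 2 were called lower at 5 mg/kg against saline. None was called in CD4+ cells from 5 to 50 mg/kg. In CD8+ cells 1 of the 5 was higher and 2 were lower at 5 mg/kg against saline. From 5 to 50 mg/kg, 1 was higher and 2 were lower in CD8+ cells.

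Of 10 other negative regulators, 1 was higher and 6 were lower at 50 mg/kg in CD4+ cells (34.7% and 35.8% of all genes). In CD8+ cells 3 were higher and 3 lower, near the shares of all genes (37.1% and 36.9%). Ptpn11, the phosphatase SHP-2, fell by 1.78 ± 0.06 (CD4+) and by 1.58 ± 0.07 (CD8+), and Pias2 by 0.43 ± 0.14 and 0.74 ± 0.13. Ptpn6, the phosphatase SHP-1, rose by 0.53 ± 0.05 in CD8+ cells. Usp18, an interferon-induced inhibitor, rose in CD4+ cells at 5 mg/kg (0.31 ± 0.12) and was below saline at 50 mg/kg (-0.77 ± 0.13).

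The counts of ligands and receptors are to be read against 35.8% of all genes lower at 50 mg/kg in CD4+ and 36.9% in CD8+ cells. Of the 8 cytokine genes tested in CD4+ cells, 1 was higher and 5 were lower at 50 mg/kg, and of 6 in CD8+ cells none was higher and 4 were lower. Il21, which signals through STAT3, was counted at 215, 372 and 325 UMIs in the saline CD4+ pools, 137, 158 and 206 at 5 mg/kg and 11, 8 and 28 at 50 mg/kg, a fall of 4.30 ± 0.18 in CPM against saline. In CD8+ pools Il21 had 38, 46 and 62 UMIs with saline and 0, 0 and 1 at 50 mg/kg. Csf2, the gene of GM-CSF, rose in CD4+ cells by 1.15 ± 0.24 at 5 mg/kg and fell below saline at 50 mg/kg (-1.46 ± 0.31 in CD4+ and -1.57 ± 0.27 in CD8+ cells). Lif fell by 2.51 ± 0.43 and by 3.15 ± 0.48. Il2, named after its values were seen, had 30, 32 and 34 UMIs in the saline CD4+ pools, 46, 45 and 146 at 5 mg/kg and 9, 9 and 46 at 50 mg/kg, and in each treated group the pool of replicate 3 was highest. Its rise at 5 mg/kg was 1.63 ± 0.36 (adjusted p = 0.000706).

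Of 7 gamma chain receptor genes, 1 was higher and 4 were lower at 50 mg/kg in each lineage. Il2ra, the high-affinity IL-2 receptor chain, fell by 0.95 ± 0.09 (CD4+) and 0.99 ± 0.09 (CD8+), Il4ra by 1.19 ± 0.14 and 1.15 ± 0.15, Il7r by 1.04 ± 0.09 in CD4+ and Il21r by 0.47 ± 0.06 in CD8+ cells. Of 11 other receptor genes tested in CD4+ cells, 1 was higher and 5 were lower, and of 10 in CD8+ cells 3 were higher and 6 lower. Il6st, the shared IL-6 family receptor gp130, fell by 2.77 ± 0.14 (CD4+) and 1.29 ± 0.12 (CD8+). Il6ra fell by 1.10 ± 0.17 in CD4+ cells and rose by 1.35 ± 0.20 in CD8+ cells. Ifngr1 fell by 0.94 ± 0.07 in CD4+ and Il12rb1 by 0.72 ± 0.10 in CD8+ cells.

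Genes known to respond to the STATs were mixed. Of 16 STAT5 targets, 9 were higher and 1 lower at 5 mg/kg in CD4+ cells (26.1% and 25.6% of all genes), with a median of 0.24. In CD8+ cells 10 were higher and 2 lower (29.9% and 30.3%), with a median of 0.34. The medians over all genes were -0.01 and 0.00. This list holds Socs1, Socs3 and Cish, given above as higher at 5 mg/kg, so its counts and medians are not independent of those results. The 16 targets split at 50 mg/kg into 7 higher and 7 lower in CD4+ cells (34.7% and 35.8% of all genes). In CD8+ cells 4 were higher and 6 lower (37.1% and 36.9%). Named by the size of their change at 50 mg/kg, beside Il2ra and Socs2, were rises of Gzmb (1.11 ± 0.07, CD4+) and Ccnd2 (1.26 ± 0.09, CD8+) and falls of Bcl2 (-0.98 ± 0.07 in CD4+ and -1.05 ± 0.11 in CD8+ cells), a survival gene. Of 7 STAT4 and Th1 genes, 1 was higher and 5 were lower at 50 mg/kg in each lineage. Il18r1 fell by 2.19 ± 0.06 and by 1.28 ± 0.09, Furin by 1.498 ± 0.09 and by 0.99 ± 0.10, Il12rb2 by 0.74 ± 0.09 in CD4+ cells and Ifng by 1.06 ± 0.17 in CD8+ cells.

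Of 7 STAT3-linked genes of Tfh or Th17 cells tested in CD4+ cells, none was higher and 6 were lower at 50 mg/kg (34.7% and 35.8% of all genes). Of 6 in CD8+ cells 1 was higher and 4 were lower (37.1% and 36.9%). Il21 is one of them. Il17a had 10, 1 and 0 UMIs in the saline CD4+ pools and 0 in each pool at 50 mg/kg. Bcl6, the Tfh factor, fell by 1.41 ± 0.26 and Ahr by 1.35 ± 0.25 in CD8+ cells. Of 12 interferon-response genes, 3 were higher and 5 lower in CD4+ cells and 5 higher and 3 lower in CD8+ cells at 50 mg/kg. These counts are near the same shares of all genes. Oas1a fell by 1.28 ± 0.14 and 1.31 ± 0.17, Irf1 by 0.53 ± 0.06 and Rsad2 by 1.05 ± 0.24 in CD4+ cells, and Gbp4 by 0.66 ± 0.10 in CD8+ cells, where Ifit3 rose by 0.94 ± 0.20.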

How the data were processed

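Single-cell 5' RNA sequencing was performed on sorted donor CD4+ and CD8+ T cells. The authors deposited UMI counts per gene and cell, with a table of cells that gives treatment, pool, lineage, cluster and a mitochondrial fraction per cell; the submitters' processing notes name Cell Ranger, Seurat 3.0.0 and mm10. The aligner settings and the annotation version were not given in the sources used here. The fraction deposited for each cell was read as a check and not tested.

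Counts were summed per pool and lineage, without TEa cells, and tested with edgeR 4.0.16 (quasi-likelihood, filterByExpr, TMM, R 4.3.3) over all genes passing the filter, adjusted by Benjamini-Hochberg and called under 0.05. Each lineage was fitted over its 3 groups. The difference between lineages was fitted with pool as a block, since both lineages came from the same pools. Sums over pools with at least 10 cells were tested within clusters. The statistics were tested on simulated data in which a small set of genes was changed. Far more genes were called in these data, so that simulation does not bear on the choice of scaling. The fit with pool number as a block was added after seeing the data. The 3 pools of a group held different mice of 1 capture, so p-values measure the spread between those pools.

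Members and lists were chosen with earlier results of these data known. All 10 members were named, with at most 3 called genes per list and lineage by size of change at 50 mg/kg, and the 3 genes most like each member by Pearson correlation of log2(CPM + 1). CD8+ cluster names were matched to the deposited cluster numbers by their proportions in each group. Alternatives were DESeq2 1.42.0, library size scaling, no filter on low counts, fits to the groups compared alone, other choices of cells and leaving out each pool. The 1070 cells with a second strong hashtag were kept and left out in 1 alternative, and no other doublet caller was run. Some listed genes are not reported here by name.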

Additional observations from a re-analysis of the deposited data

Results flagged for a closer look

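The change at 50 mg/kg differed between the lineages for 2 of the 10 members, by an interaction term in edgeR. That count is near the 19.3% of all genes called in the same comparison. For Jak2 the CD8+ change was 0.53 higher than the CD4+ change on the log2 scale, since the level fell by 1.75 in CD4+ and by 1.19 in CD8+ cells. For Jak1 it was 0.20 higher, with a fall of 0.19 in CD4+ cells and a change of 0.04 in CD8+ cells that did not pass the test. Every pool at 50 mg/kg lay below every saline pool in CD4+ and CD8+ cells for Jak2, and in CD4+ cells for Jak1. The Jak1 difference was 0.11 outside the cycling clusters and 0.12 among cells of 4000 to 8000 UMIs, and passed the test in neither. Among the latter cells Jak1 itself was 0.33 higher in CD8+ cells at 50 mg/kg than with saline (adjusted p = 2.75e-06, edgeR).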

How the results depend on the processing

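Of 1500 values of the members recomputed under alternatives, 1369 kept their direction and side of the threshold, 35 changed sign without passing the test in either fit, 53 kept their direction and lost the call, 28 gained it and 15 turned with a call in 1 of both fits, and the causes were not tested. Those that turned among cells of 4000 to 8000 UMIs were, in CD4+ cells, Jak1 (0.13), Stat3 (0.052) and Stat4 (0.037) at 5 mg/kg and Jak1 (0.17), Stat4 (0.18), Socs1 (0.21) and Socs3 (0.16) at 50 mg/kg, and in CD8+ cells Jak1 (0.011) at 5 mg/kg and Stat4 (0.22), Socs1 (0.24) and Cish (0.53) at 50 mg/kg. With library size scaling, Jak3 turned at 5 mg/kg (-0.25 in CD4+ and -0.28 in CD8+ cells), as did Cish in CD4+ (-0.37) and Jak1 in CD8+ cells (-0.49) at 50 mg/kg. In the same cells of 4000 to 8000 UMIs the Stat5a share of CD4+ cells rose by 2.10 percentage points at 5 mg/kg and 4.67 at 50 mg/kg, with exact permutation p = 0.4 and 0.3. The number of members whose change differed between lineages at 50 mg/kg was 1 outside the cycling clusters. At 5 mg/kg it ranged from 0 to 1 on leaving out 1 pool, with the 1 reached without saline replicate 3. Stat4 in CD4+ cells at 50 mg/kg passed the test without the 50 mg/kg replicate 1 or 3 pool (-0.12 in both), and Jak3 in CD8+ cells at 5 mg/kg did so without the same pools (0.14 in both). Stat5a in CD4+ cells at 5 mg/kg passed it without saline replicate 3 (-0.26). The pools of each group are numbered 1 to 3 in the cell table. Deviations from the group means of same-numbered pools correlated by -0.079 to 0.046 in CD4+ and -0.022 to 0.075 in CD8+ cells. Pools of different number gave -0.060 to 0.067 and -0.119 to 0.083. These ranges overlap, and whether same-numbered pools share more than a number was not tested. With that number as a replicate block, an alternative chosen after seeing the data, the members called were 8, 9 and 8 in CD4+ cells (5 mg/kg against saline, 50 mg/kg against saline, 50 against 5 mg/kg) and 10, 7 and 10 in CD8+ cells, with Stat4 gained in CD4+ at 50 mg/kg (-0.11) and Jak3 in CD8+ cells at 5 mg/kg (0.15). Depth limits Socs3 most, with 89 UMIs in the CD8+ pool where it was lowest.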
